A study of Mus musculus with 16 samples.

Results

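The genes described here encode 10 folding chaperones and co-chaperones of the endoplasmic reticulum (ER), chosen by name from the 22880 genes of the deposited wild type sheet: Hspa5, Hsp90b1, Hyou1, Calr, Canx, Dnajb9, Dnajb11, Dnajc3, Sdf2l1 and Manf. All 10 were found, and all 10 were above the minimum level for testing in every comparison. Total RNA of brain cortex had been sequenced from 16 individual mice, all F1 animals of a cross between C57Bl6/J and Sv129. KO_SD are BK-deficient mice that were gently handled to keep them awake for the first 4 h of the light phase, KO_BL are BK-deficient mice left undisturbed over the same hours, WT_SD are wild type littermates kept awake in that way, and WT_BL are undisturbed wild type littermates, with 4 mice in each group. Brains were taken at zeitgeber time 4 in every group, and mice lived 2 to a cage, so the groups share the light cycle and the time of day. BK is a potassium channel opened by calcium and voltage, and Kcnma1 encodes its pore-forming subunit. Neither the ages of the mice, the part of Kcnma1 that the knockout allele lacks, nor the cells in which it is lacking were stated in the labels.

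Proteins that are to be secreted or placed in a membrane enter the ER unfolded, where chaperones hold them until they reach their shape. BiP, the product of Hspa5, binds exposed hydrophobic stretches and releases them in a cycle driven by ATP, which J-domain proteins start and the nucleotide exchange factor encoded by Hyou1 resets. Calnexin and calreticulin hold glycoproteins by their sugars. When unfolded proteins build up, the sensors of the unfolded protein response lead to transcription of chaperone genes through factors that include the spliced form of XBP1 and cleaved ATF6. A rise of Hspa5 RNA with prolonged wakefulness has been described in rodent cortex in earlier work by others.

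The best known promoter sequence of this response is the ER stress response element, CCAAT, then 9 bases of any kind, then CCACG. It was searched on both strands in the 250 bases upstream of the annotated start in RefSeq windows of build GRCm38.p6, where 8 of the 10 genes had a window and Hyou1 and Manf were not matched. The element was in the windows of 5 of the 8 genes, and in 37 of all 32851 windows (0.113%). It was searched because it is known for this response, so its presence in chaperone genes is a description, and no test was run. The 8 windows held 59.6% (Canx) to 73.6% (Dnajc3) G and C, against a median of 52.4% over all windows. The 6 elements are shown because this element is rare among all windows and present in 5 of these 8; each is read from CCAAT to CCACG, capitals mark those 2 parts, and the strand given is that of the element.
Hspa5, chr2:34772025-34772043, plus strand: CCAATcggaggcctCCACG
Hsp90b1, first, chr10:86705533-86705551, plus strand: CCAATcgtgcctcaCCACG
Hsp90b1, second, chr10:86705638-86705656, minus strand: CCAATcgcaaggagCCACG
Calr, chr8:84847075-84847093, plus strand: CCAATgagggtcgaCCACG
Canx, chr11:50325800-50325818, minus strand: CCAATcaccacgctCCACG
Dnajc3, chr14:118937827-118937845, plus strand: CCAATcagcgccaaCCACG

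The windows of Dnajb9, Dnajb11 and Sdf2l1 held no match to these letters. The element of Hspa5 lay 65 to 47 bases upstream of the RefSeq start, the nearest of the 6, and the farther one of Hsp90b1 lay 212 to 194 bases upstream. These distances hold for the RefSeq starts only. In the GENCODE M21 annotation Hspa5 begins at 34771970, so its element lies inside that gene. None of the 8 windows held a second form of the element (ATTGG, 1 base, CCACG, in 0.0304% of all windows) or the cAMP response element (TGACGTCA, in 1.55%). Nor did any hold TGACGTGG (in 0.563%), the only form searched of the core of the unfolded protein response element. The Hspa5 window holds TGACGTGA, which differs from TGACGTGG in the last base. CCAAT alone was in 8 of the 8 windows against 33.8% of all windows, and CCACG alone in 7 of the 8 against 28.3%; both also count the copies inside the elements. A match is a string of letters and not a measured binding site.

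Whole windows are shown for a gene with the element that rose after sleep deprivation (Calr), a gene with the element that did not pass the test (Canx), and the gene with the largest fold change, which had no match (Sdf2l1). They run on the strand of the gene towards its start, and capitals mark the element, which in Calr lies on the other strand and therefore reads from CGTGG to ATTGG.
Calr, chr8:84846932-84847181, minus strand: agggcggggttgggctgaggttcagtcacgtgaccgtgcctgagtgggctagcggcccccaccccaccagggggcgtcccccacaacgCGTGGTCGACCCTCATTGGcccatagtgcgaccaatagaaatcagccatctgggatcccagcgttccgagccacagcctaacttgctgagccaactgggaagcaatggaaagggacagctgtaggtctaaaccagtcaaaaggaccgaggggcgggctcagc
Canx, chr11:50325674-50325923, minus strand: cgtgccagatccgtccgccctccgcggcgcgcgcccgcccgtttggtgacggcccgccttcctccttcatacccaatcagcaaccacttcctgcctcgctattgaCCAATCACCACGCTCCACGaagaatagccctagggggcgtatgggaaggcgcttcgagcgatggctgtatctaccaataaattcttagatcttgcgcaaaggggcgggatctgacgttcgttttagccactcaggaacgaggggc
Sdf2l1, chr16:17132384-17132633, minus strand: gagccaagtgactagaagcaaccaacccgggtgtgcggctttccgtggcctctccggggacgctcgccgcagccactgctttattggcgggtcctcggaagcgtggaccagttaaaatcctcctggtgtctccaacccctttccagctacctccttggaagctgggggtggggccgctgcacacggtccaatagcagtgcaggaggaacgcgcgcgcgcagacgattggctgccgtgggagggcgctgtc

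**Figure D1:**
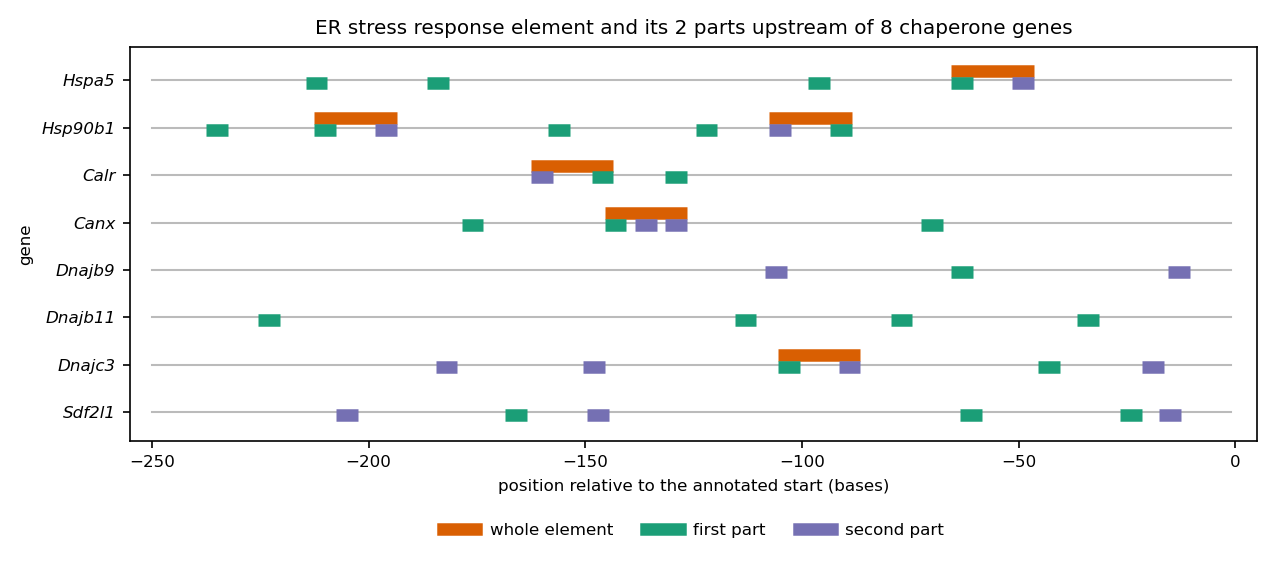
Positions of the ER stress response element (orange) and of each match to its first part (CCAAT, green) and second part (CCACG, purple) on either strand, in the 250 bases upstream of the RefSeq start of 8 chaperone genes; the horizontal axis gives the distance from the start in bases. The whole element is in 5 of the 8 windows, 2 times in that of Hsp90b1.

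The values are normalized counts: the authors divided the gene counts of each library by a factor for that library. The steps between low values gave back the reads, 8.76 to 30.5 M per library, and the shallowest (KO_BL 1) and the deepest (KO_SD 2) were both labelled knockout. Each of the 10 neuron markers looked at was above 0 in every group, with sums of 161055 to 173228 normalized counts in KO_SD, 162031 to 181662 in KO_BL, 150984 to 175046 in WT_SD and 160668 to 179065 in WT_BL. Neuronal RNA was thus present in every group, which does not check that the tissue was cortex alone. Kcnma1 itself was counted in every group (432.2 to 2004 in KO_SD, 1425 to 2156 in KO_BL, 822.7 to 1583 in WT_SD and 1151 to 1889 in WT_BL); a count over the whole gene does not check the genotype, which rests on the labels.

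Sleep deprivation was compared with undisturbed rest in each genotype, and as the mean of both genotypes. In that mean, 8 of the 10 genes rose, by 1.29-fold (Dnajc3) to 2.25-fold (Sdf2l1), against 5.12% of all 14604 genes tested that rose (limma, Benjamini-Hochberg adjusted p below 0.05). The other members were Canx, which encodes calnexin, at a log2 fold change (± SE) of 0.13 ± 0.0738 (limma adjusted p = 0.26), and Dnajb9, at 0.09 ± 0.0746 SE (limma adjusted p = 0.459). The same 8 genes were called in every alternative setting of this fit. Tissue pieces hold several cell types, so in these samples a change in the number of cells of a type and a change in RNA per cell cannot be told apart.

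Within the BK-deficient mice alone 2 of the 10 passed, Hspa5 and Sdf2l1, against 0.189% of all genes that rose. Within the wild type mice alone 6 passed, namely Hspa5, Sdf2l1, Manf, Calr, Dnajb11 and Hsp90b1, against 0.853% of all genes. With all 16 libraries in 1 model, 7 of the 10 passed in the BK-deficient mice, where 135 of all genes rose. In that model 5 passed in the wild type mice, where 60 of all genes rose. By the plain order of the libraries, the lowest KO_SD value lay above the highest KO_BL value for 7 of the 10 genes (4.59% of all genes), and the lowest WT_SD value lay above the highest WT_BL value for 8 (6.04% of all genes). Of the 10 genes, 10 had a positive fold change in each genotype, with a median log2 fold change of 0.63 in the BK-deficient and 0.47 in the wild type mice, beside medians of 0.00 over all genes.

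**Figure D2:**
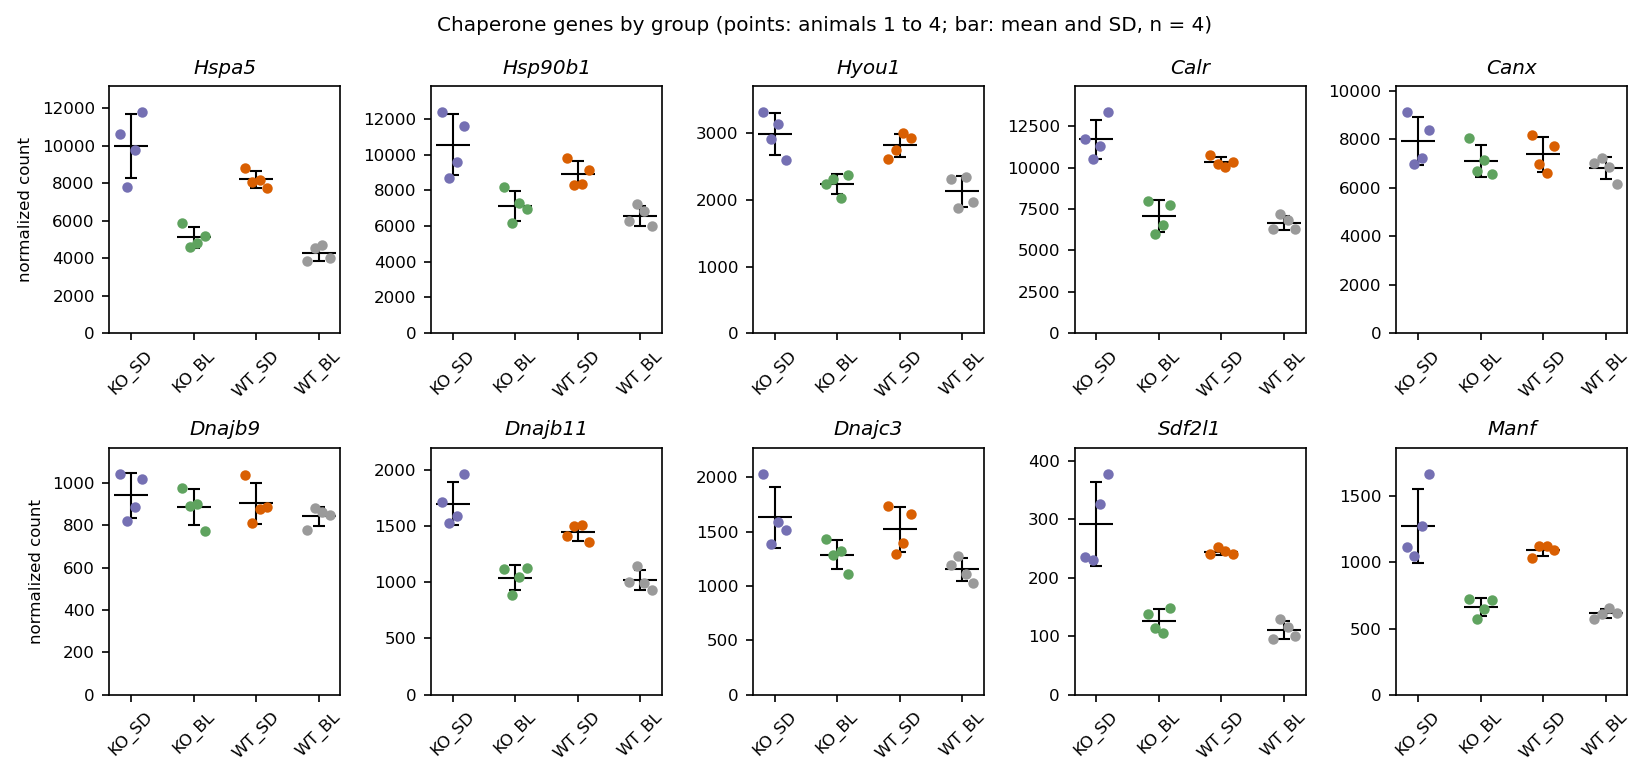
Normalized counts (vertical axes, from 0) of the 10 genes in KO_SD, KO_BL, WT_SD and WT_BL; each point is an animal, and the black bar is the mean with its SD, n = 4. Hspa5, Hsp90b1, Hyou1, Calr, Dnajb11, Sdf2l1 and Manf do not overlap between sleep-deprived and undisturbed mice of either genotype, Dnajc3 overlaps in the BK-deficient mice, and Canx and Dnajb9 overlap in both.

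Hspa5 (ENSMUSG00000026864, chromosome 2, 34771970 to 34777547, plus strand, GRCm38) encodes BiP, the main HSP70 of the ER. Its normalized counts were 10640, 7779, 9753 and 11780 in KO_SD 1 to 4, against 5889, 4592, 4816 and 5173 in KO_BL 1 to 4. They were 8828, 8092, 8167 and 7732 in WT_SD 1 to 4, against 3865, 4571, 4693 and 4000 in WT_BL 1 to 4. Every sleep-deprived mouse of either genotype lay above every undisturbed mouse, with the 2 highest values in KO_SD 4 and KO_SD 1. The log2 fold change was 0.95 ± 0.144 SE in the BK-deficient mice (1.94-fold, 95% interval 1.56 to 2.42, limma adjusted p = 0.0300). It was 0.94 ± 0.0852 SE in the wild type mice (1.92-fold, 1.69 to 2.19, limma adjusted p = 0.000615), where Hspa5 ranked 4 of 14310 genes by p. The call in the BK-deficient mice was lost when KO_BL 2, KO_BL 3, KO_BL 4 or KO_SD 3 was left out (limma adjusted p up to 0.126), while the call in the wild type mice held in all 16 alternatives.

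Hsp90b1 (ENSMUSG00000020048, chromosome 10, 86690209 to 86705509, minus strand) encodes GRP94, the HSP90 of the ER, which matures receptors and integrins. Its normalized counts were 12360, 8675, 9578 and 11630 in KO_SD 1 to 4, against 8161, 6144, 7293 and 6945 in KO_BL 1 to 4. They were 9814, 8299, 8335 and 9161 in WT_SD 1 to 4, against 6280, 7229, 6849 and 5982 in WT_BL 1 to 4. The groups did not overlap within either genotype, but KO_BL 1 came close to the lowest sleep-deprived libraries. In the fit, the log2 fold change was 0.56 ± 0.142 SE in the BK-deficient mice, which did not pass (limma adjusted p = 0.171), and 0.44 ± 0.0873 SE in the wild type mice, which passed (limma adjusted p = 0.0365). The wild type call was near the threshold and was lost in 8 of 16 alternatives, 6 of them the omission of WT_SD 1, WT_SD 3 or any 1 of the WT_BL mice (limma adjusted p up to 0.119).

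Hyou1 (ENSMUSG00000032115, chromosome 9, 44379490 to 44392369, plus strand) encodes the large HSP70-like exchange factor that resets BiP. Its normalized counts were 3313, 2908, 3147 and 2593 in KO_SD 1 to 4, against 2245, 2312, 2025 and 2376 in KO_BL 1 to 4, and the groups did not overlap. They were 2612, 2757, 2999 and 2924 in WT_SD 1 to 4, against 2319, 1877, 2341 and 1970 in WT_BL 1 to 4, again without overlap. The log2 fold change was 0.41 ± 0.118 SE in the BK-deficient mice (limma adjusted p = 0.222) and 0.41 ± 0.0921 SE in the wild type mice (limma adjusted p = 0.0540), so neither passed alone. The mean of both genotypes passed, at 0.41 ± 0.0715 SE (limma adjusted p = 0.00251).

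Of the lectin chaperones, Calr passed in the wild type mice and Canx in neither genotype. Calr (ENSMUSG00000003814, chromosome 8, 84841850 to 84846934, minus strand) encodes calreticulin, the soluble one, which also stores calcium in the ER lumen. Its normalized counts were 11710, 10520, 11340 and 13340 in KO_SD 1 to 4, against 8016, 5964, 6547 and 7761 in KO_BL 1 to 4. They were 10750, 10220, 10030 and 10340 in WT_SD 1 to 4, against 6286, 7205, 6826 and 6319 in WT_BL 1 to 4. The sleep-deprived mice lay above the undisturbed ones in both genotypes, and the WT_SD mice were close to each other, with a coefficient of variation of 2.95%. On the log2 scale, the fold change was 0.73 ± 0.129 SE in the BK-deficient mice (limma adjusted p = 0.0543, short of the threshold) and 0.64 ± 0.0727 SE in the wild type mice (limma adjusted p = 0.00216).

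Canx (ENSMUSG00000020368, chromosome 11, 50293961 to 50325673, minus strand) encodes calnexin, the membrane-bound relative of calreticulin. Its normalized counts were 9106, 6982, 7227 and 8375 in KO_SD 1 to 4, against 8034, 6687, 7155 and 6567 in KO_BL 1 to 4. They were 8187, 6969, 6616 and 7722 in WT_SD 1 to 4, against 7016, 7215, 6858 and 6154 in WT_BL 1 to 4. The groups overlapped in both genotypes. The log2 fold change was 0.15 in the BK-deficient mice (95% interval -0.12 to 0.42, limma adjusted p = 0.63) and 0.11 in the wild type mice (-0.08 to 0.30, limma adjusted p = 0.542). Neither interval reached the estimate for Calr in the same genotype.

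Among the members that are J-domain co-chaperones, which recruit BiP to its clients, Dnajb11 had the largest fold change in each genotype. Dnajb11 (ENSMUSG00000004460, chromosome 16, 22857845 to 22879634, plus strand) had 1715, 1528, 1591 and 1962 normalized counts in KO_SD 1 to 4, against 1116, 884.5, 1042 and 1122 in KO_BL 1 to 4. It had 1408, 1499, 1506 and 1354 in WT_SD 1 to 4, against 1004, 1144, 991 and 930.3 in WT_BL 1 to 4. The groups did not overlap in either genotype. In the fit, the log2 fold change was 0.71 ± 0.128 SE in the BK-deficient mice (limma adjusted p = 0.0602) and 0.51 ± 0.0836 SE in the wild type mice (limma adjusted p = 0.0169). The wild type call was lost without WT_BL 3, WT_BL 4 or WT_SD 3 (limma adjusted p up to 0.0826).

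Dnajc3 (ENSMUSG00000022136, chromosome 14, 118937976 to 118981697, plus strand) encodes p58IPK, a co-chaperone of BiP that also binds unfolded proteins. It had 2032, 1390, 1586 and 1517 normalized counts in KO_SD 1 to 4, against 1430, 1283, 1325 and 1109 in KO_BL 1 to 4, and KO_SD 2 fell below KO_BL 1. It had 1734, 1294, 1399 and 1662 in WT_SD 1 to 4, against 1190, 1281, 1109 and 1032 in WT_BL 1 to 4, which did not overlap by a small margin. The log2 fold change was 0.33 ± 0.142 SE in the BK-deficient mice (limma adjusted p = 0.383) and 0.39 ± 0.108 SE in the wild type mice (limma adjusted p = 0.101). Only the mean of both genotypes passed, at 0.36 ± 0.0903 SE (limma adjusted p = 0.0192).

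Dnajb9 (ENSMUSG00000014905, chromosome 12, 44205559 to 44210326, minus strand) encodes ERdj4, which takes misfolded proteins towards degradation and holds the stress sensor IRE1 in check. It had 1043, 820.4, 888.8 and 1019 normalized counts in KO_SD 1 to 4, against 977.8, 893.6, 900.1 and 775.4 in KO_BL 1 to 4. It had 1038, 809.5, 877.6 and 888.8 in WT_SD 1 to 4, against 777, 883, 861.1 and 850.8 in WT_BL 1 to 4. The groups overlapped in both genotypes. Its log2 fold change was 0.09 in the BK-deficient mice (95% interval -0.19 to 0.36, limma adjusted p = 0.808) and 0.10 in the wild type mice (-0.10 to 0.29, limma adjusted p = 0.625).

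The lumenal proteins Sdf2l1 and Manf had the least abundant and a mid-level RNA of the 10, and their fold changes were among the 3 largest in each genotype. Sdf2l1 (ENSMUSG00000022769, chromosome 16, 17130138 to 17132383, minus strand), whose product works with Dnajb11 in keeping proteins soluble, had 235.2, 230.1, 325.8 and 377.8 normalized counts in KO_SD 1 to 4, against 138.1, 114, 106.3 and 147.7 in KO_BL 1 to 4. It had 241.3, 252.1, 245.4 and 240.2 in WT_SD 1 to 4, against 95.07, 128.7, 116 and 99.58 in WT_BL 1 to 4. The groups did not overlap, and the WT_SD mice were nearly alike while KO_SD 3 and KO_SD 4 stood above the other KO_SD mice. On the log2 scale, the fold change was 1.18 ± 0.197 SE in the BK-deficient mice (2.27-fold, 95% interval 1.68 to 3.07, limma adjusted p = 0.0444) and 1.16 ± 0.124 SE in the wild type mice (2.23-fold, 1.85 to 2.69, limma adjusted p = 0.00156). The call in the BK-deficient mice was lost in 8 of 18 alternatives, 7 of them the omission of a single library, namely KO_SD 2, 3 or 4 or any of the KO_BL mice (limma adjusted p up to 0.172).

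Manf (ENSMUSG00000032575, chromosome 9, 106838312 to 106891979, minus strand) encodes an ER protein that binds BiP and is also secreted as a neurotrophic factor. It had 1113, 1046, 1274 and 1669 normalized counts in KO_SD 1 to 4, against 721.6, 575.7, 651 and 714.1 in KO_BL 1 to 4. It had 1034, 1124, 1123 and 1092 in WT_SD 1 to 4, against 572.6, 610.1, 658.8 and 621 in WT_BL 1 to 4. No sleep-deprived mouse fell among the undisturbed ones, and KO_SD 4 was the highest of all. The log2 fold change was 0.92 ± 0.158 SE in the BK-deficient mice (limma adjusted p = 0.0529, short of the threshold and past it in 8 of 18 alternatives) and 0.83 ± 0.077 SE in the wild type mice (1.78-fold, limma adjusted p = 0.000648).

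No source used here gives the strandedness of the libraries, so reads in exons shared with a neighbour cannot be assigned with certainty. In the GENCODE M21 annotation, Hsp90b1 shares 415 exon bases with the opposite-strand pseudogene 1810014B01Rik, and Manf shares 146 with Dcaf1 and 166 with 4930524O07Rik, both on the opposite strand. Dnajb9 shares 14 with Mir5627, also on the opposite strand. On the same strand, Hsp90b1 shares 133 with Gm25745 and 84 with Gm15344, and Manf shares 14 with Rbm15b. Strandedness would not separate reads in these same-strand bases. The authors' deposited table called 7 of the 10 genes in the BK-deficient and 8 in the wild type mice at a false discovery rate below 0.05. Beyond the calls above, the authors' deposited table listed Hsp90b1, Hyou1, Calr, Dnajb11 and Manf in the BK-deficient mice (false discovery rates of 0.0210, 0.0419, 0.000101, 0.000108 and 3.84e-05) and Hyou1 and Dnajc3 in the wild type mice (0.00367 and 0.0258). The authors' deposited table called neither Canx nor Dnajb9 in either genotype.

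**Figure D3:**
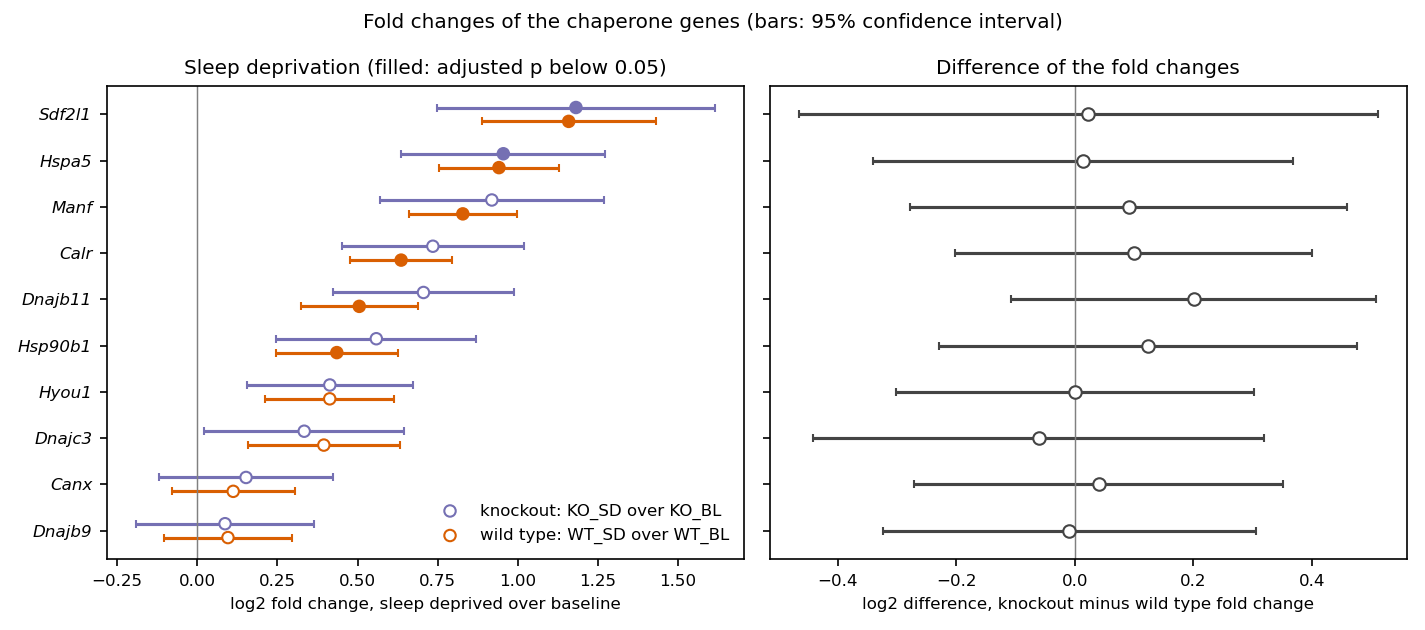
Left, log2 fold change of sleep-deprived over undisturbed mice for each gene, in BK-deficient (purple) and wild type (orange) mice; right, the knockout minus the wild type fold change; bars are 95% confidence intervals and filled points passed limma at an adjusted p below 0.05. The genes fall in the same order in both genotypes, from Sdf2l1 at 1.18 and 1.16 to Dnajb9 at 0.09 and 0.10, and every interval on the right spans 0.

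The genotypes were compared after sleep deprivation, at baseline, and in how far sleep deprivation changed each gene. After sleep deprivation 0 of the 10 genes passed between BK-deficient and wild type mice, as did 0 of all 14280 genes tested (0% by limma, 232 genes at an unadjusted p below 0.05, and 0 by edgeR). At baseline 0 of the 10 passed and 2 of all 14341 genes did (0.0139% by limma, 395 genes at an unadjusted p below 0.05, and 1 by edgeR). For the difference in response, 0 of the 10 and 0 of all 14604 genes passed (0% by limma, 160 genes at an unadjusted p below 0.05, and 0 by edgeR). In each of these comparisons the genes at an unadjusted p below 0.05 were less than a share of 0.05 of those tested. A share of 0.05 is awaited where no gene differs, and the reason for the lower counts was not tested.

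The size of those differences was bounded as follows. For Hspa5 the knockout fold change minus the wild type one was 0.01 on the log2 scale (95% interval -0.34 to 0.37). Over the 10 genes the estimate ran from -0.06 for Dnajc3 to 0.20 for Dnajb11 (-0.11 to 0.51), and the widest interval was that of Sdf2l1, from -0.47 to 0.51. Intervals of this width do not show that the genotypes responded alike.

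Between genotypes within a treatment, Hspa5 averaged 9988 ± 1690 normalized counts in KO_SD and 8205 ± 457 in WT_SD (SD, n = 4 each), a log2 difference of 0.27 (95% interval -0.03 to 0.56, limma adjusted p = 0.9998). It averaged 5118 ± 567 in KO_BL and 4282 ± 411 in WT_BL (SD, n = 4 each), a log2 difference of 0.25 (0.04 to 0.47, unadjusted p = 0.0230 and adjusted p = 0.982 by limma). The Hspa5 ranges overlapped in both comparisons. After sleep deprivation the groups of 1 of the 10 genes, Dnajb11, did not overlap, with 1528 to 1962 in KO_SD and 1354 to 1506 in WT_SD (limma adjusted p = 0.9998), beside 0.693% of all genes that lay higher in KO_SD without overlap. The fold change of knockout over wild type was positive for 10 of the 10 genes in both treatments, with medians of 0.19 after sleep deprivation and 0.09 at baseline, where 49.3% of all genes were positive after sleep deprivation and 50.9% at baseline. Disulfide isomerase genes leaned the same way (18 and 17 of 21), as did cytosolic heat shock protein genes (22 and 19 of 25). Other ER folding factors did so less (15 and 14 of 27). All 10 genes lay above their group mean in KO_BL 1, so they are not 10 separate observations. In some alternatives the sign turned for Canx, Dnajb9 and Dnajc3 after sleep deprivation (lowest values -0.05, -0.08 and -0.03) and for Canx and Dnajb11 at baseline (-0.0005 and -0.01). Marker genes also leaned by genotype after sleep deprivation. Positive were 11 of 11 striatal, 7 of 10 neuron and 6 of 10 oligodendrocyte markers. So were 1 of 11 hippocampal, 0 of 10 endothelial and mural, 1 of 10 astrocyte and 1 of 10 microglia markers. At baseline 8 of 12 striatal and 3 of 10 hippocampal markers were positive. The part of tissue make-up in the genotype differences was not tested.

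Levels can be set beside each other between genes only per transcript length, as FPKM. Calr was the most abundant of the 10 in every group, at 508 ± 47.9 FPKM in KO_SD, 309 ± 39.6 in KO_BL, 452 ± 17.8 in WT_SD and 292 ± 22 in WT_BL (SD, n = 4 each). Sdf2l1 was the least abundant, at 13.5 ± 3.33 FPKM in KO_SD, 5.88 ± 0.865 in KO_BL, 11.4 ± 0.309 in WT_SD and 5.12 ± 0.763 in WT_BL (SD, n = 4 each). Between these ends the order differed with sleep deprivation.

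In FPKM, Hspa5 came behind Calr alone in both sleep-deprived groups, and behind Calr, Hsp90b1 and Canx in both undisturbed groups. Its FPKM was 377.3, 283.3, 356.1 and 421.9 in KO_SD 1 to 4, against 212.5, 170, 174.7 and 186.5 in KO_BL 1 to 4. It was 326.9, 293, 299.1 and 275.6 in WT_SD 1 to 4, against 139.6, 170.4, 166.1 and 147.9 in WT_BL 1 to 4. Canx had 238.8, 188, 195.2 and 221.8 FPKM in KO_SD 1 to 4, against 214.4, 183.1, 192 and 175.1 in KO_BL 1 to 4. Canx had 224.2, 186.6, 179.2 and 203.5 FPKM in WT_SD 1 to 4, against 187.4, 198.9, 179.5 and 168.3 in WT_BL 1 to 4. Hspa5 thus exceeded Canx by 72.1 to 200.1 FPKM in each of the 8 sleep-deprived libraries, and lay below it in 7 of the 8 undisturbed ones, KO_BL 4 being the exception at 11.4 FPKM above. In the sleep-deprived groups the ranges of Hspa5 and Hsp90b1 overlapped, and in the undisturbed groups those of Hspa5 and Canx did.

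**Figure D4:**
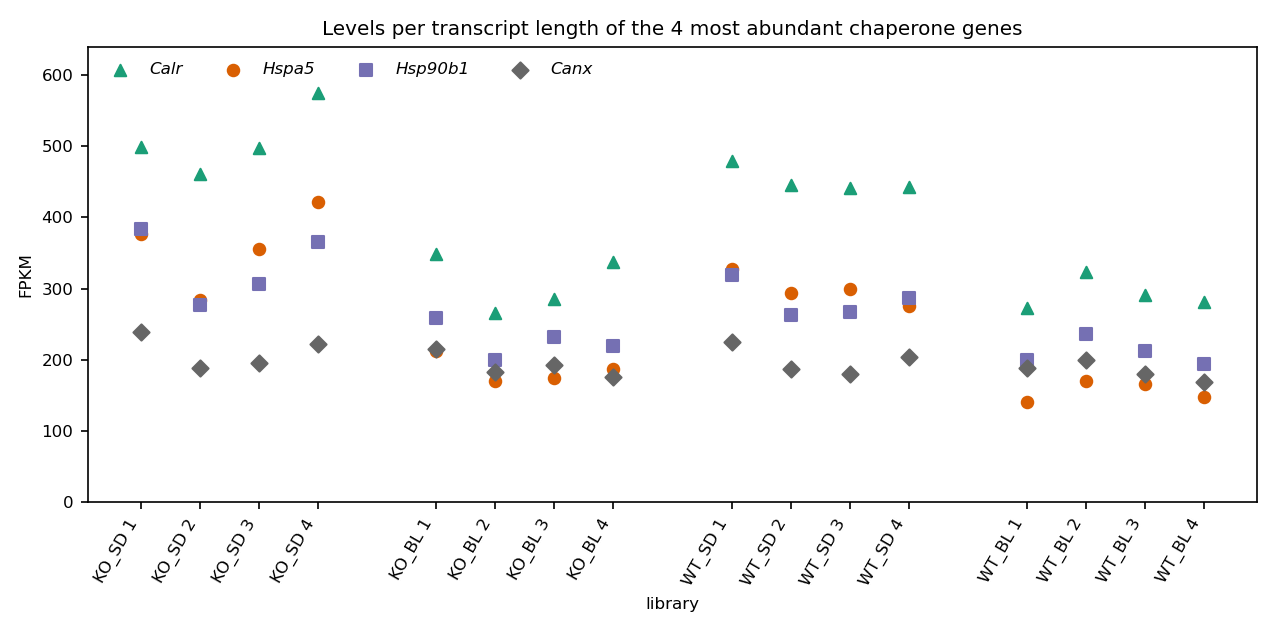
FPKM (vertical axis) of Calr, Hspa5, Hsp90b1 and Canx in each of the 16 libraries, grouped as KO_SD, KO_BL, WT_SD and WT_BL. Hspa5 lies above Canx in all 8 sleep-deprived libraries, by at least 72.1 FPKM, and within or below the Canx range in the undisturbed ones.

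As a share of the summed FPKM of the 10 genes, Hspa5 took 21.6% ± 1.24 in KO_SD and 17.3% ± 0.377 in KO_BL, and 20.52% ± 0.802 in WT_SD and 15.7% ± 0.753 in WT_BL (SD, n = 4 each). The share of Canx was 12.7% ± 0.837 in KO_SD and 17.8% ± 1.17 in KO_BL, and 13.6% ± 0.801 in WT_SD and 18.5% ± 0.88 in WT_BL (SD, n = 4 each). For both genes the shares of sleep-deprived and undisturbed libraries did not overlap. The share of Calr differed less, at 30.7% ± 1.5 in KO_SD, 28.7% ± 1.76 in KO_BL, 31.1% ± 0.474 in WT_SD and 29.4% ± 0.552 in WT_BL (SD, n = 4 each). It overlapped in the BK-deficient mice but not in the wild type mice (30.5% to 31.6% in WT_SD, 28.8% to 29.9% in WT_BL). Shares add to a fixed total, so the share of one gene moves with those of the rest, and no test was run on them.

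The KO_SD mice varied more among themselves than the WT_SD mice. The coefficient of variation was larger in KO_SD than in WT_SD for all 10 genes, from 10.1% (Calr) to 24.6% (Sdf2l1) in KO_SD and from 2.20% (Sdf2l1) to 13.8% (Dnajc3) in WT_SD. This spread was not limited to the 10 genes. Over all genes with at least 10 reads in a pair, the chi-square between replicates was 13.5 to 91.5 per degree of freedom in KO_SD. It was 7.66 to 38.2 in WT_SD. The share of all genes with a larger coefficient of variation in KO_SD was not worked out. KO_SD 2, the deepest library, was the lowest of its group for 9 of the 10 genes, whereas KO_SD 1 and KO_SD 4 were each the highest for 5. KO_BL 1, the shallowest library, lay above its group mean for all 10 genes and was the highest for 7. The mean of the 10 log2 deviations from each gene's average over the 16 libraries ran from 0.16 to 0.53 in KO_SD and from -0.35 to -0.09 in KO_BL, and from 0.16 to 0.27 in WT_SD and from -0.44 to -0.26 in WT_BL. The part that depth has in these orders was not tested.

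**Figure D5:**
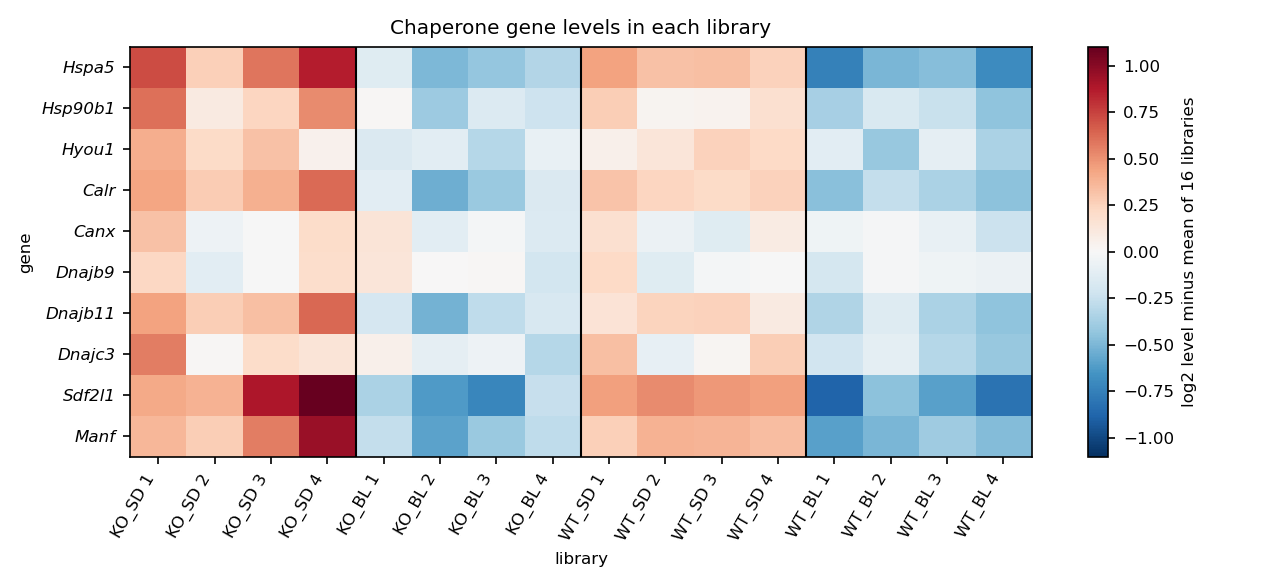
Log2 level of each gene (rows) in each library (columns), minus its mean over the 16 libraries; red is above and blue below the mean, and black lines part KO_SD, KO_BL, WT_SD and WT_BL. Hspa5, Sdf2l1 and Manf are red in all 8 sleep-deprived and blue in all 8 undisturbed libraries, while Canx and Dnajb9 differ little between them.

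Likeness to Hspa5 was measured as the root mean square difference between log2 levels centred on each gene's mean over the 16 libraries, for 14603 other genes. The smallest differences were those of Pdia4 (0.103), a disulfide isomerase gene, Manf (0.133), Crem (0.163), which encodes a transcription factor of cAMP signalling, Xbp1 (0.164) and Calr (0.169). Among the other members Sdf2l1, Dnajb11 and Hsp90b1 ranked 6, 11 and 17, Hyou1 and Dnajc3 ranked 180 and 186, and Canx and Dnajb9 ranked 1526 and 2137. No test was run on this ranking.

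Crem, chosen here for its likeness to Hspa5, which itself follows sleep deprivation, had log2 fold changes of 0.92 in the BK-deficient and 0.70 in the wild type mice; these follow in part from that choice and are a description only. The same holds for Pdia4 and Xbp1, whose values stand below with the lists they belong to.

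Of the other ER genes, the disulfide isomerases held the most that rose. Of 21 tested, 2 rose and 0 fell in the BK-deficient mice (Creld2 and Pdia4, median log2 fold change 0.06), and 4 rose and 0 fell in the wild type mice (Pdia4, Pdia6, Creld2 and Pdia3, median 0.07). Creld2, which encodes a disulfide isomerase-like ER protein, had a log2 fold change (± SE) of 0.996 ± 0.152 in the BK-deficient mice (limma adjusted p = 0.0300) and 0.87 ± 0.132 SE in the wild type mice (limma adjusted p = 0.00999). Pdia6 had 0.68 ± 0.139 SE in the BK-deficient mice (limma adjusted p = 0.0912) and 0.61 ± 0.0763 SE in the wild type mice (limma adjusted p = 0.00383). In the mean of both genotypes 7 of the 21 rose and 1 fell (median 0.06), so a few large fold changes stood beside list medians near 0. Beside this and the following lists, 0.189% of all genes rose in the BK-deficient and 0.853% in the wild type mice. In the mean of both genotypes 5.12% of all genes rose, and 713 of 14604 fell. Pdia4, a disulfide isomerase gene, had 0.92 ± 0.15 SE in the BK-deficient mice (limma adjusted p = 0.0377) and 0.91 ± 0.0743 SE in the wild type mice (limma adjusted p = 0.000414).

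Of 27 further folding factors of the ER, such as prolyl isomerases and glycoprotein-processing enzymes, 0 passed in the BK-deficient mice (median log2 fold change 0.07) and 1 rose in the wild type mice (median 0.02). That gene was Dnajc1, which encodes a J-domain protein of the ER membrane, at 0.40 ± 0.201 SE in the BK-deficient mice (limma adjusted p = 0.441) and 0.66 ± 0.0926 SE in the wild type mice (limma adjusted p = 0.00701). In the mean of both genotypes 2 of the 27 rose and 0 fell. The median of this list was below that of the 10 chaperone genes in each genotype. Next by p in the wild type mice were Fkbp14, a prolyl isomerase gene, at 0.24 in the BK-deficient mice (limma adjusted p = 0.526) and 0.31 in the wild type mice (limma adjusted p = 0.166), and Mcfd2, at 0.14 in the BK-deficient mice (limma adjusted p = 0.729) and 0.21 in the wild type mice (limma adjusted p = 0.229).

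Of 20 genes for sensors and effectors of the unfolded protein response, Xbp1 was the one that passed in each genotype, with list medians of -0.04 in the BK-deficient and -0.03 in the wild type mice. Atf4, which encodes a transcription factor translated under stress, had a log2 fold change of 0.43 in the BK-deficient mice (limma adjusted p = 0.275) and 0.30 in the wild type mice (limma adjusted p = 0.166). Ppp1r15b, whose product recruits a phosphatase to the initiation factor eIF2 alpha, had 0.21 in the BK-deficient mice (limma adjusted p = 0.522) and 0.23 in the wild type mice (limma adjusted p = 0.181). No other gene of this list passed within either genotype, and in the mean of both genotypes 2 rose and 3 fell. Xbp1 itself had 0.86 ± 0.127 SE in the BK-deficient mice (limma adjusted p = 0.0285) and 0.62 ± 0.0858 SE in the wild type mice (limma adjusted p = 0.00650), and gene counts do not separate its spliced from its unspliced form.

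Of 25 genes of ER-associated degradation, 0 passed in either genotype, at medians of 0.07 in the BK-deficient and 0.03 in the wild type mice, though 21 in the BK-deficient and 19 in the wild type mice had positive fold changes. In the mean of both genotypes 3 rose and 1 fell. Herpud1, which encodes a stress-induced part of the degradation complex, had a log2 fold change of 0.34 in the BK-deficient mice (limma adjusted p = 0.302) and 0.30 in the wild type mice (limma adjusted p = 0.0770). Selk, which encodes a selenoprotein of the ER membrane, had 0.49 in the BK-deficient mice (limma adjusted p = 0.253) and 0.36 in the wild type mice (limma adjusted p = 0.0505). Ubxn4 had 0.20 in the BK-deficient mice (limma adjusted p = 0.552) and 0.27 in the wild type mice (limma adjusted p = 0.115).

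Of 31 genes for entry into the ER and for signal peptide cleavage and glycosylation there, 30 had positive fold changes in each genotype, with medians of 0.22 in the BK-deficient and 0.14 in the wild type mice. In the BK-deficient mice 0 passed, in the wild type mice 2 rose, and in the mean of both genotypes 3 rose and 0 fell. Stt3b, which encodes a catalytic subunit of the oligosaccharyltransferase, had a log2 fold change (± SE) of 0.42 ± 0.12 in the BK-deficient mice (limma adjusted p = 0.222) and 0.38 ± 0.068 SE in the wild type mice (limma adjusted p = 0.0224). Ostc, which encodes another subunit of that enzyme, had 0.51 ± 0.145 SE in the BK-deficient mice (limma adjusted p = 0.219) and 0.39 ± 0.0837 SE in the wild type mice (limma adjusted p = 0.0486). Rpn1 had 0.28 in the BK-deficient mice (limma adjusted p = 0.392) and 0.26 in the wild type mice (limma adjusted p = 0.0985).

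Some chaperone genes outside the ER also rose. Of 25 cytosolic heat shock protein genes, 0 passed in the BK-deficient mice and 6 rose in the wild type mice, with 24 positive fold changes and a median of 0.38 in the BK-deficient mice and 25 and 0.32 in the wild type mice. In the mean of both genotypes 15 of 26 rose and 0 fell (limma), with 26 positive fold changes and a median of 0.36, against 8 of 10 and 0.55 for the ER chaperone genes. Hspa8, which encodes the constitutive cytosolic HSP70, had a log2 fold change (± SE) of 0.53 ± 0.135 in the BK-deficient mice (limma adjusted p = 0.171) and 0.48 ± 0.0673 SE in the wild type mice (limma adjusted p = 0.00701). Hsph1, which encodes its exchange factor HSP110, had 0.63 ± 0.149 SE in the BK-deficient mice (limma adjusted p = 0.141) and 0.46 ± 0.0685 SE in the wild type mice (limma adjusted p = 0.00922). Hspb1, a small heat shock protein gene, had 1.57 ± 0.31 SE in the BK-deficient mice (limma adjusted p = 0.0804) and 1.30 ± 0.217 SE in the wild type mice (limma adjusted p = 0.0172).

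The element described above was also looked up among all genes: 35 carried it in an upstream window, of which 5 are members. Of the other 30, 13 were tested in the BK-deficient and 14 in the wild type mice, and 0 fell in either. Creld2 alone rose in the BK-deficient mice (0.189% of all genes rose), and Creld2 and Pdia6 rose in the wild type mice (0.853% of all genes rose). Of the 5 members that carry it, Hspa5 rose in the BK-deficient mice, and Hspa5, Calr and Hsp90b1 rose in the wild type mice. Of the 3 members with a window and no match, Sdf2l1 rose in the BK-deficient mice, and Sdf2l1 and Dnajb11 rose in the wild type mice.

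Markers of neighbouring tissue moved with sleep deprivation in the same libraries. All 11 tested striatal marker genes had negative fold changes in both genotypes, with medians of -0.92 in the BK-deficient and -1.24 in the wild type mice and 0 genes that passed in the BK-deficient and 1 in the wild type mice. In the mean of both genotypes, the fit in which 8 chaperone genes rose, 6 of 12 striatal markers fell, 2 of 11 hippocampal markers rose and 1 fell, 2 of 10 oligodendrocyte markers rose, and 2 of 5 blood markers fell (limma). Over all 14604 genes of that fit, 748 rose and 713 fell. The summed normalized counts of the striatal markers ran from 5335 to 12334 in KO_SD and from 6456 to 19816 in KO_BL, and from 4723 to 7191 in WT_SD and from 6011 to 25346 in WT_BL, so the groups overlapped. Hippocampal markers had positive fold changes for 9 of 10 genes in the BK-deficient mice (median 0.36) and 9 of 11 in the wild type mice (median 0.76), with sums of 3091 to 4899 in KO_SD, 3393 to 4845 in KO_BL, 3365 to 6672 in WT_SD and 3246 to 4874 in WT_BL. Oligodendrocyte markers had positive fold changes for 10 of 10 genes in the BK-deficient mice (median 0.41) and 9 of 10 in the wild type mice (median 0.23), with sums of 74356 to 123825 in KO_SD, 53929 to 82489.5 in KO_BL, 72108 to 128597 in WT_SD and 56006 to 98634.5 in WT_BL. Blood markers had negative fold changes for all 5 tested genes in both genotypes, with medians of -0.97 in the BK-deficient and -0.77 in the wild type mice. None of these markers was at 0 in every library of a group, and their part in the chaperone results was not tested.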

How the data were processed

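Brain cortex RNA of 16 mice was read on a HiSeq2500 sequencer, per the labels' protocols. Builds mm10 and GRCm38 and the tools edgeR and RSEM 1.2.19 come from the submitters' processing notes, which give no roles. The deposited values are normalized counts, a signal the authors scaled by a factor per library, in 4 sheets normalized separately (library totals differ by at most 0.23%), and FPKM values per the file headers. The authors' log2 ratio (first named group over second) and their p-values with false discovery rates are quoted only as the authors' deposited values. Fits of sleep deprivation, of its mean over genotypes and of the interaction took each library from its genotype's sheet. Fits of knockout against wild type took the sheet of the sleep-deprived or of the baseline comparison. Levels came from the wild type sheet, which lists all 16, and 48 further per-sample columns were not used here.

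Values up to 20 reads were whole multiples of a step within 0.1 read (100% in every library). The lowest chi-square between replicates of a group was 7.66 per degree of freedom, so no library was taken as a copy of another in its group. Libraries of different groups were not compared in this way. All 16 libraries were treated as separate, and the cage of a mouse was not in the fits. limma 3.58.1 (R 4.3.3, trend, robust, two-sided) was run on log2(normalized count + 1), a scale that understates changes of low genes, over genes with at least 10 normalized counts in at least 4 libraries, adjusted by Benjamini-Hochberg, with 0.05 as threshold. Each of 6 comparisons was fitted on all genes: pairs of groups on their 8 libraries, the mean of genotypes and the interaction on 16. Scripts were tested on simulated data. Alternatives were edgeR 4.0.16 on recovered reads, TMM and DESeq2 1.42.0 median-of-ratios scaling, a pseudocount of 0.5, other filters, 1 model of 16 libraries, a replicate block and leave-one-out fits. After seeing the data, a fit of the wild type sheet for all libraries and a fit without KO_BL 1, KO_SD 1 and KO_SD 4 were added.

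The members, lists and rules were chosen with earlier results of these data known. Genes named are the members, the up to 3 genes of each list with the smallest p for sleep deprivation in wild type, and the 5 genes most like Hspa5; Pdia3 was named to complete a count. Lists were described by counts and medians, without a set test. Positions are from GENCODE M21 (GRCm38) and sequences from RefSeq (GRCm38.p6).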

Additional observations from a re-analysis of the deposited data

How the results depend on the processing

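Member calls held their direction throughout: over 16 called results and 332 alternative values, 309 kept the call, 23 lost it and 0 reversed, and of 868 values of results without a call 18 gained it. In the BK-deficient mice 2 members passed for sleep deprivation, against 1 with no filter on low values, 4 with TMM scaling, 5 with a replicate block, 7 with all 16 libraries in 1 model, 6 without KO_BL 1, KO_SD 1 and KO_SD 4 (a choice made after seeing the data, which kept KO_SD 2, the lowest of its group for 9 of the 10 genes), and 0 to 3 when 1 library was left out. In the wild type mice 6 passed, against 5 with a replicate block, 5 with all 16 libraries in 1 model and 4 to 6 when 1 library was left out. Genes called for sleep deprivation in the BK-deficient mice were 33, against 220 in 1 model, 383 without the 3 libraries and 0 to 70 with 1 left out. In the wild type mice they were 194, against 79 in 1 model and 46 to 508 with 1 left out, the extremes being without WT_SD 3 and without WT_SD 4. The mean of both genotypes gave 1461 genes, and 728 to 2369 with 1 left out. Knockout against wild type at baseline gave 2 genes, against 0 with a pseudocount of 0.5, 1 with edgeR, 1 in 1 model, 1 without the 3 libraries and 0 to 2 with 1 left out. The interaction gave 0, and 1 without the 3 libraries. The cause of these shifts was not tested. Replicate numbers did not pair the samples as a whole: over 24 same-numbered pairs the correlation of deviations ran from -0.40 to 0.38, 9 were over 0.1, and 9 were best with their own number. All 6 pairs of number 1 were over 0.1 (0.17 to 0.38) and best with their own number, against 2, 0 and 1 pairs over 0.1 for numbers 2, 3 and 4.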
